A study of Mus musculus with 8 samples.

Results

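Genes of cholesterol synthesis were followed across 8 RNA-seq libraries of mouse embryonic stem cells (mESCs) and their derivatives. The set was drawn up as 8 genes by symbol: the enzymes Hmgcs1, Idi1, Fdft1, Sqle, Lss, Cyp51 and Dhcr7, and Insig1, a regulator of the pathway. A gene was included if its symbol was found in the GENCODE annotation of the NCBIM37 mouse genome, which named 37205 of the 37620 genes counted. In this way 7 of the 8 were found, and Hmgcs1 was not analysed here. The coordinates given below for each gene are of this annotation and span the whole gene, of which exons were counted. All 7 passed the filter on low counts, with between 423 and 10941 read pairs in each library.

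Of the 8 libraries, 7 came from R1, an mESC line. Except in the mesoderm progenitor cultures, cells of this line were grown without feeder cells in a medium that contains serum. They received CHIR99021 (3 µM, an inhibitor of GSK3) and PD0325901 (1 µM, an inhibitor of MEK), together called 2i. In 2iJ a JAK inhibitor (2.0 µM) was added to 2i, and in 2iJ+B-A BMP4 (10 ng/ml) and ALK5 inhibitor II (10 µM) were added to 2iJ. There was 1 library of 2i and 1 of 2iJ, both from day 5, and there were 3 of 2iJ+B-A, from days 2, 5 and 11. The sorted library held GFP-positive cells from a Cdx2-GFP reporter line after 2 days in 2iJ+B-A. The 2 mesoderm progenitor libraries, from days 3 and 4, came from R1 embryoid bodies in a mixture of IMDM and Ham's F-12 with the supplements B-27 and N-2 and bovine serum albumin, for which no serum is listed. BMP4, Activin A and Wnt3a were given to them from day 2, and the day 4 cells had also been exposed to IWP-2, an inhibitor of Wnt secretion, for a day.

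Cells obtain cholesterol by taking up lipoproteins, which serum carries, and by making it from acetyl-CoA through mevalonate, squalene and lanosterol. When membrane sterol is low, the protein Scap escorts the transcription factor SREBP-2 (encoded by Srebf2) to the Golgi, where it is cut and released to the nucleus, and genes of synthesis and of lipoprotein uptake are transcribed. When sterol is high, Insig proteins hold Scap back, while the LXR receptors switch on genes of cholesterol export.

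Because these genes share regulators, the 250 bases before the transcription start were examined for 4 of them: Cyp51 and Lss, with the largest differences between the groups, Idi1, with a pair of boxes near its start, and Insig1, the regulator. The sequences are from RefSeq on the GRCm38.p6 build, written 5′ to 3′ on the strand of the gene, and capitals mark the box of the factor NF-Y (CCAAT, or ATTGG on the other strand), a frequent partner of SREBP-2.
Cyp51 promoter, chr5:4104698-4104947, minus strand: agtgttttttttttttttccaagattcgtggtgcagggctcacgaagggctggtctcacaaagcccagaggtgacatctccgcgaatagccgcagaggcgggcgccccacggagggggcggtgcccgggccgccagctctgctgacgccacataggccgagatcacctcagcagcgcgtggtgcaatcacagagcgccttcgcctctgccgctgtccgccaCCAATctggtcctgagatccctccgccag
Lss promoter, chr10:76531355-76531604, plus strand: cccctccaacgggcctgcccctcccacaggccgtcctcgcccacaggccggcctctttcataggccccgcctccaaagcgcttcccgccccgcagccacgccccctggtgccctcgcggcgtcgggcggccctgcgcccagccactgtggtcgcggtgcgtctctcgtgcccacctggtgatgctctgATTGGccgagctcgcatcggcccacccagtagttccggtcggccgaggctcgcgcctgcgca
Idi1 promoter, chr13:8885356-8885605, plus strand: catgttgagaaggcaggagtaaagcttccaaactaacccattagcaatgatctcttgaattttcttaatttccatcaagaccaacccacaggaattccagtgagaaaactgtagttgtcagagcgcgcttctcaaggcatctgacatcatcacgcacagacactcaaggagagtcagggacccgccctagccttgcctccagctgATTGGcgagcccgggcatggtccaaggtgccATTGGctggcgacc
Insig1 promoter, chr5:28071162-28071411, plus strand: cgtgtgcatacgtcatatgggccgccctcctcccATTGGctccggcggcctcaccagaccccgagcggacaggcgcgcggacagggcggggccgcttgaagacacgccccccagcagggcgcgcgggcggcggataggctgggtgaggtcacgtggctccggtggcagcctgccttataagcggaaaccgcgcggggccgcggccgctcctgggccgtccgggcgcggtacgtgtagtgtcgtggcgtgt
The capitals begin 29 bases before the start in Cyp51 and 62 bases before it in Lss. In Idi1 they begin 45 and 14 bases before the start, and in Insig1 216 bases before it.

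RefSeq windows of 300 bases, from 250 before the start to 50 after it, were found for 5 of the 7 genes, and Sqle and Fdft1 had no entry in the table used. Searched on both strands, the NF-Y box was present in a window of all 5 (Cyp51, Dhcr7, Idi1, Insig1 and Lss), while 37.4% of 32817 windows and 41.0% of 26994 genes held it. The GC box GGGCGG, bound by Sp1, was also present in all 5, against 35.6% of windows and 38.2% of genes. The E-box CACGTG, a motif that SREBPs can bind, was found in Insig1 and Dhcr7, against 7.15% of windows and 8.09% of genes. The sterol response element searched as TCACNCCAC was in none of the 5 and in 1.24% of windows, which says only that these letters are not in these windows. None of the 4 motifs contains another, the E-box reads the same on both strands, and Dhcr7 has 3 annotated starts, of which 1 carries the NF-Y box. A match is a description of the sequence and was not tested for binding.

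Values are read pairs per gene on the strand of the gene, as counts-per-million (CPM) of the gene counts of the library. Gene counts totalled 19810855 in the sorted library and between 24532587 and 31453888 in the other 7. The sorted library stood apart in alignment, with 29.7% of read pairs unmapped against 2.17% to 3.85% in the others. Of its uniquely aligned read pairs, 27.84% were assigned to no gene, against 7.83% to 13.21% in the others. Mesoderm marker genes (T, Mesp1, Mixl1, Eomes, Kdr and Pdgfra) were higher in the mesoderm progenitors than in 2iJ+B-A for 6 of 6, and pluripotency genes were lower for 5 of 7, by edgeR's quasi-likelihood test at an adjusted p under 0.05. Of all genes, 11.5% were called higher and 15.5% lower in that comparison. The 2 mesoderm libraries were not alike: on days 3 and 4 respectively, T was at 547 and 6.30 CPM and Pou5f1 (Oct4) at 701 and 35.4 CPM. The labels do not say that libraries of a group came from separate cultures, and in these bulk samples a change in RNA per cell cannot be told apart from a change in the share of cells of a type.

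The cholesterol synthesis genes were higher in the mesoderm progenitors than in the stem cell libraries, which here include the sorted cells. In the sorted cells 7 trophectoderm markers summed to 3849 CPM and 7 pluripotency genes to 2347 CPM. In the 5 unsorted libraries these sums were 73.15 to 1295 CPM and 3058 to 4327 CPM. All 7 cholesterol synthesis genes had higher CPM in both mesoderm libraries than in any of the 6 stem cell libraries, a pattern shown by 19.3% of the 16961 genes tested. Against 2iJ+B-A all 7 rose (edgeR quasi-likelihood test, adjusted p between 0.00104 and 0.0140), where 11.5% of all genes were called higher. Their median log2 fold change was 1.73, between 1.14 for Fdft1 and 2.97 for Cyp51, while the median over all genes was -0.03. Against the mean of the 2i, 2iJ and 2iJ+B-A groups, which shares the mesoderm libraries and the 2iJ+B-A libraries, all 7 rose as well (15.7% of all genes called higher), with a median of 1.45 against 0.01 for all genes. The sorted library has a coefficient of its own and enters neither comparison. Leaving it out could therefore move these results little (7 of 7 in both, medians of 1.73 and 1.45) and is no check on them.

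**Figure D1:**
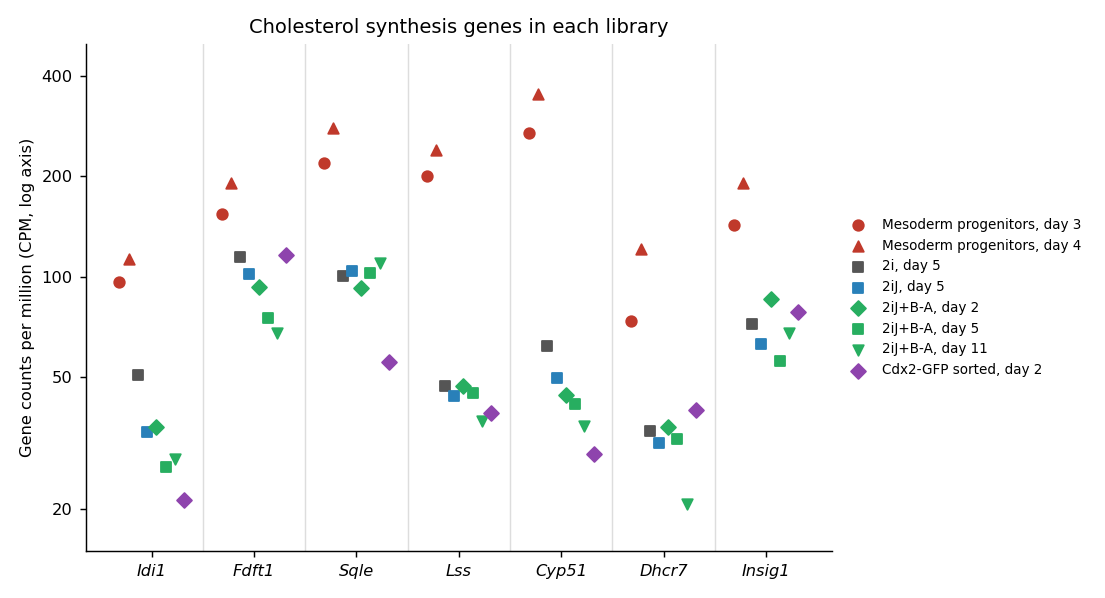
CPM of the 7 cholesterol synthesis genes (log axis) in each of the 8 libraries, 1 point a library, with colours for the groups and shapes for the days. For every gene the 2 mesoderm points lie above the 6 stem cell points, by the widest margin for Cyp51 and Lss.

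Idi1 (chromosome 13, 8884852 to 8891641, plus strand) encodes isopentenyl diphosphate isomerase, which supplies an isoprene unit upstream of squalene. It was at 96.2 and 113 CPM in the mesoderm progenitors on days 3 and 4, at 50.6 CPM in 2i, at 34.1 CPM in 2iJ, at 35.5, 26.7 and 28.3 CPM in 2iJ+B-A on days 2, 5 and 11, and at 21.4 CPM in the sorted cells. The mesoderm libraries were clear of all others, and 2i stood highest of the stem cells. The means were 104 ± 11.6 CPM (SD, n = 2) and 30.2 ± 4.66 CPM (SD, n = 3) in 2iJ+B-A, and the log2 fold change was 1.80 (SE 0.21, edgeR adjusted p = 0.00344).

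Fdft1 (chromosome 14, 63763990 to 63796630, minus strand) encodes squalene synthase, the first step committed to sterols. It was at 154 and 191 CPM in the mesoderm progenitors, at 114 CPM in 2i and 102 CPM in 2iJ, at 93.1, 75.2 and 67.9 CPM in 2iJ+B-A, and at 116 CPM in the sorted cells. This was the narrowest margin of the 7, with the day 3 mesoderm library 1.32-fold above the highest stem cell library. The log2 fold change against 2iJ+B-A was 1.14 (SE 0.20, edgeR adjusted p = 0.0106). Against the 3 unsorted stem cell groups it was 0.79 (edgeR adjusted p = 0.0229), and this call was lost without the day 4 mesoderm library (adjusted p = 0.0870) or without day 5 of 2iJ+B-A (adjusted p = 0.0522). Fdft1 overlaps Ctsb on the opposite strand.

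Sqle (chromosome 15, 59146632 to 59162747, plus strand) encodes squalene epoxidase, a rate-limiting enzyme of the sterol branch. It was at 219 and 279 CPM in the mesoderm progenitors, at 100 CPM in 2i and 104 CPM in 2iJ, at 92.4, 102 and 110 CPM in 2iJ+B-A, and at 55.3 CPM in the sorted cells. The 5 unsorted stem cell libraries lay within 1.19-fold of each other, the least spread of the 7 genes, and the sorted library was below them all. The log2 fold change against 2iJ+B-A was 1.31 (SE 0.17, edgeR adjusted p = 0.00461).

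Lss (chromosome 10, 75994333 to 76019883, plus strand) encodes lanosterol synthase, which closes the sterol rings. It was at 201 and 240 CPM in the mesoderm progenitors, at 47.0 CPM in 2i and 43.9 CPM in 2iJ, at 47.0, 44.7 and 36.8 CPM in 2iJ+B-A, and at 38.9 CPM in the sorted cells. The day 3 mesoderm library was 4.28-fold above the highest stem cell library. The log2 fold change against 2iJ+B-A was 2.38 (SE 0.18, edgeR adjusted p = 0.00143), a 5.19-fold difference. Lss overlaps the gene 4930483K19Rik on the opposite strand.

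Cyp51 (chromosome 5, 4081145 to 4104746, minus strand) encodes lanosterol 14-alpha demethylase, the first step after lanosterol. It was at 270 and 353 CPM in the mesoderm progenitors, at 61.7 CPM in 2i and 49.7 CPM in 2iJ, at 44.0, 41.4 and 35.5 CPM in 2iJ+B-A, and at 29.3 CPM in the sorted cells. The gap between the groups was the widest of the 7, with the day 3 mesoderm library 4.38-fold above the highest stem cell library, 2i. The mean was 312 ± 58.8 CPM (SD, n = 2) against 40.3 ± 4.34 CPM (SD, n = 3) in 2iJ+B-A, and the log2 fold change was 2.97 (SE 0.19, edgeR adjusted p = 0.00104), a 7.81-fold difference.

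Dhcr7 (chromosome 7, 151009050 to 151034315, plus strand) encodes 7-dehydrocholesterol reductase, which makes cholesterol in the last step. It was at 73.7 and 121 CPM in the mesoderm progenitors, at 34.4 CPM in 2i and 31.7 CPM in 2iJ, at 35.3, 32.5 and 20.8 CPM in 2iJ+B-A, and at 39.8 CPM in the sorted cells. Dhcr7 had the largest step between the mesoderm days of the 7 genes, and its lowest library was day 11 of 2iJ+B-A. The log2 fold change against 2iJ+B-A was 1.73 with the widest error of the 7 (SE 0.32, edgeR adjusted p = 0.0120).

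Insig1 (chromosome 5, 28397952 to 28405201, plus strand) encodes the membrane protein that retains Scap when sterol is high and is itself a target of SREBP-2. It was at 143 and 191 CPM in the mesoderm progenitors, at 71.9 CPM in 2i and 62.7 CPM in 2iJ, at 85.8, 55.8 and 67.6 CPM in 2iJ+B-A, and at 78.0 CPM in the sorted cells. Its level did not follow the day within 2iJ+B-A, and both mesoderm libraries lay above the other 6. The log2 fold change against 2iJ+B-A was 1.27 (SE 0.24, edgeR adjusted p = 0.0140).

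Levels of different genes can be compared only per length, so CPM was divided by the length of all annotated exons in kilobases. On that scale of levels, Cyp51 had the highest mean of the 7 in the mesoderm progenitors, at 72.8 CPM per kb, followed by Insig1 at 63.0 and Fdft1 at 60.3 CPM per kb. In 2iJ+B-A the order differed, with Fdft1 at 27.5 and Insig1 at 26.4 CPM per kb in front and Cyp51 at 9.40 CPM per kb behind Sqle (18.3) and Idi1 (10.5). Lss had the lowest mean in both groups, at 20.4 and 3.97 CPM per kb, over annotated exons that total 10787 bases. That length takes in the exons of all annotated transcripts, and was 2647 to 5546 bases for the other genes, so the place of Lss depends on it. In CPM, its mesoderm mean of 220.5 lay above those of Idi1 (104.5) and Dhcr7 (97.3). In the mesoderm progenitors the ranges over libraries of Cyp51, Insig1 and Fdft1 overlapped each other, as did those of Lss and Dhcr7. In 2iJ+B-A the ranges of Fdft1 and Insig1 overlapped, as did that of Cyp51 with those of Idi1 and Dhcr7, so the order within these sets was not separated.

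Most of the other pathway enzymes analysed rose with them. Of 11 further synthesis genes, 10 rose against 2iJ+B-A (11.5% of all genes) and 10 against the 3 unsorted stem cell groups, Ebp being the exception in each, with a median log2 fold change of 1.79 and 1.76. Against 2iJ+B-A the log2 fold changes of the mevalonate enzymes Acat2, Mvk, Pmvk and Mvd were 1.79, 1.37, 2.04 and 2.19, and that of Fdps, which makes farnesyl diphosphate, was 1.75. After lanosterol, Nsdhl reached 2.35 and Sc4mol (now called Msmo1), its neighbour in the removal of methyl groups, 2.26. Sc5d, a sterol desaturase, was at 1.84, Hsd17b7, a ketone reductase of the demethylation steps, at 1.42, and Tm7sf2, a sterol reductase, at 1.24. The call of Tm7sf2 was lost without the day 4 mesoderm library (edgeR adjusted p = 0.156), without day 5 of 2iJ+B-A (0.134) and without day 11 of 2iJ+B-A (0.113).

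Ebp, the sterol isomerase, was the enzyme that did not pass. Its log2 fold change was 0.84 against 2iJ+B-A (edgeR adjusted p = 0.0529) and 0.24 (adjusted p = 0.481) against the 3 unsorted stem cell groups. It was at 38.6 and 23.7 CPM in the mesoderm progenitors, at 30.1 CPM in 2i, 32.1 CPM in 2iJ and 33.0 CPM in the sorted cells, and between 16.9 and 18.3 CPM in 2iJ+B-A. The day 4 mesoderm library thus lay below 2i, 2iJ and the sorted cells. Without that library Ebp passed against 2iJ+B-A (adjusted p = 0.0196), as it did with DESeq2 (0.0172).

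As a sum over 17 enzymes, 2465 and 3099 CPM went to cholesterol synthesis in the mesoderm progenitors, and between 691 and 881 CPM in the 6 stem cell libraries. Against 2iJ+B-A 16 of the 17 enzymes rose, with a median log2 fold change of 1.79. The ranges of the sums did not overlap.

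**Figure D2:**
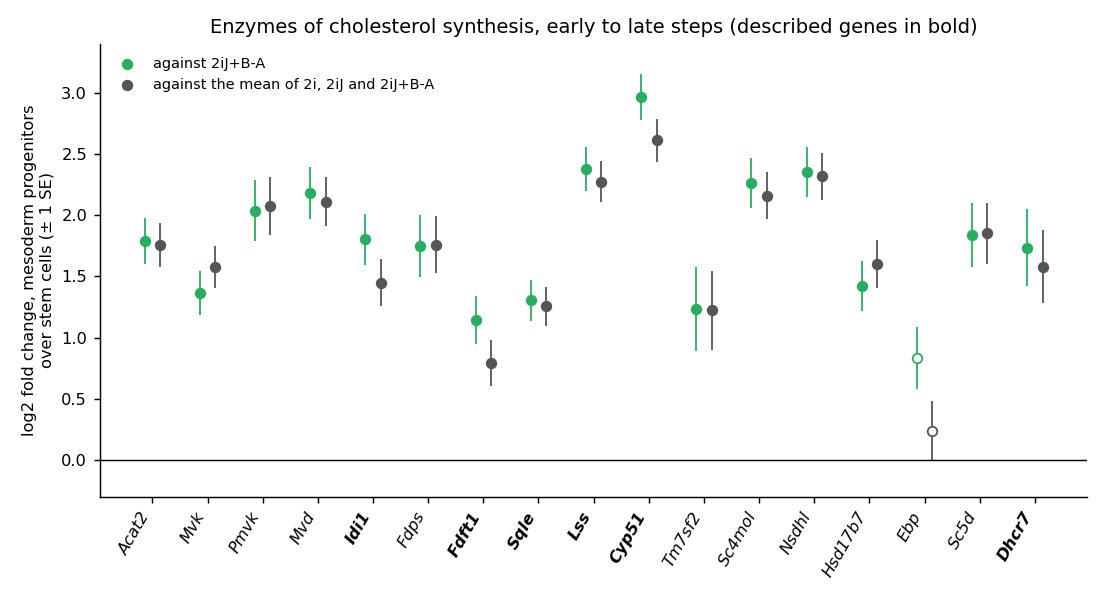
Log2 fold change (± 1 SE) of 17 enzymes in the order of the pathway, for the mesoderm progenitors (n = 2) over 2iJ+B-A (n = 3, green) and over the mean of 2i, 2iJ and 2iJ+B-A (5 libraries, grey). Open circles did not pass an adjusted p of 0.05, which applied to Ebp in both comparisons, and Cyp51 had the highest value in each.

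Regulators of the pathway changed in part. Of 6 genes of sterol sensing and SREBP processing, 2 rose against 2iJ+B-A (11.5% of all genes): Srebf2, by 1.50 on the log2 scale (edgeR adjusted p = 0.00713), and Mbtps2, the protease that makes the second cut of SREBPs, with 1.33 (adjusted p = 0.00717). Srebf2 was at 302 and 420 CPM in the mesoderm progenitors, between 110 and 157 CPM in the 5 unsorted stem cell libraries and at 94.4 CPM in the sorted cells. Srebf1, which encodes SREBP-1, had a log2 difference of 0.60 that did not pass by edgeR (adjusted p = 0.0742) and passed in 1 of 11 alternatives, DESeq2 (0.0410). Against the 3 unsorted stem cell groups it was at 0.60 as well (edgeR adjusted p = 0.0576), and 4 of 12 alternatives passed (adjusted p from 0.0222 to 0.0481). Insig2, the relative of Insig1, was at 22.9 and 25.9 CPM in the mesoderm progenitors and between 18.9 and 31.2 CPM in the stem cells, ranges that overlapped (log2 fold change 0.02, adjusted p = 0.958). Scap was at 0.04 (adjusted p = 0.901) against 2iJ+B-A and at 0.66 (adjusted p = 0.0394) against the 3 unsorted stem cell groups. The latter call was lost in 7 of 12 alternatives, which include leaving out any 1 mesoderm or 2iJ+B-A library. With 1 coefficient for the unsorted stem cells Scap was at 0.34 (edgeR adjusted p = 0.447), and with the sorted group included at 0.55 (0.0561). Without any 1 of the 2iJ+B-A libraries the adjusted p was 0.0533 to 0.0675.

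Of 7 genes of lipoprotein uptake and sterol transport inside the cell, 3 rose in the mesoderm progenitors against 2iJ+B-A (11.5% of all genes) and none fell, with a median log2 fold change of 1.11 against -0.03 over all genes. Stard4, a carrier of sterol inside the cell, had a log2 fold change of 1.49 and Lrp8, a lipoprotein receptor, 4.32. Lrp8 was at 99.4 and 46.3 CPM in the mesoderm progenitors and between 2.28 and 6.04 CPM in the 6 stem cell libraries, and was higher on day 3 than on day 4, unlike the 7 cholesterol synthesis genes. Vldlr had a log2 fold change of 1.58 (adjusted p = 0.0249), and its call was lost without the day 4 mesoderm library (0.0830), without day 2 of 2iJ+B-A (0.0677) and without day 11 (0.0728). Lipa, the lysosomal acid lipase, passed against the 3 unsorted stem cell groups (1.15, adjusted p = 0.0340), where the call was lost without the day 4 mesoderm library (0.164) or any 1 of the 2iJ+B-A libraries (adjusted p up to 0.0732), and reached 1.11 (adjusted p = 0.0501) against 2iJ+B-A. That value passed in 7 of 11 alternatives (adjusted p from 0.0119 to 0.0489), among them DESeq2 (0.0120) and no filter on low counts (0.0426), and the highest adjusted p over the 11 was 0.206.

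Genes of cholesterol export and the LXR receptors did not move together. Of 6 such genes none rose against 2iJ+B-A and 1 fell, a share near that of all genes called lower (15.5%). Against the 3 unsorted stem cell groups 1 rose and 1 fell, where 2657 of 16961 genes (15.7%) were called higher and 2780 lower. The gene that fell in both comparisons was Abcg1, which moves cholesterol onto high-density lipoprotein. It was at 1.02 and 0.90 CPM in the mesoderm progenitors and between 1.87 and 17.5 CPM in the stem cells (log2 fold change against 2iJ+B-A -2.90, SE 0.36, edgeR adjusted p = 0.00441). Abca1, a second exporter, was at 1.72 and 10.7 CPM in the mesoderm progenitors and between 8.45 and 31.6 CPM in the stem cells. Its log2 fold change of -1.70 did not pass by edgeR (adjusted p = 0.151) and passed with DESeq2 (adjusted p = 0.0499). Without the day 4 mesoderm library it was -3.53. Nr1h3, which encodes an LXR, was low throughout, at 3.08 and 2.81 CPM against at most 1.40 CPM, and passed against the 3 unsorted stem cell groups (1.68, adjusted p = 0.0331) but without any 1 mesoderm or 2iJ+B-A library did not (adjusted p from 0.0514 to 0.0700). Soat1, which esterifies cholesterol for storage, was at 221 and 250 CPM in the mesoderm progenitors and between 44.8 and 71.0 CPM in the stem cells (log2 fold change 1.82, adjusted p = 0.00163). Soat2, its relative, was at 0.60 and 0.58 CPM against 1.01 to 2.22 CPM, with a log2 fold change of -1.42 (adjusted p = 0.0619) against 2iJ+B-A. Against the 3 unsorted stem cell groups Soat2 was called lower (-1.75, edgeR adjusted p = 0.0281). That call was lost without day 5 (0.0795) or day 11 (0.0642) of 2iJ+B-A. The log2 fold change was -1.72 without the day 3 mesoderm library and -1.69 without that of day 4.

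Fatty acid synthesis, which SREBPs also drive, rose for 6 of 11 genes against 2iJ+B-A, where 11.5% of all genes were called higher, with a median log2 fold change of 1.08. Scd2, a stearoyl-CoA desaturase, was at 1840 and 2140 CPM in the mesoderm progenitors and between 237 and 1013 CPM in the stem cells (log2 fold change 2.24, edgeR adjusted p = 0.00299). Fasn, fatty acid synthase, was at 782 and 657 CPM against 178 to 360 CPM (1.60, adjusted p = 0.00292). The desaturases Fads2, Fads1 and Scd1 had log2 fold changes of 1.97, 1.45 and 1.10, and Acaca, the enzyme that makes malonyl-CoA, 1.08. Scd1 lost its call without day 5 of 2iJ+B-A (adjusted p = 0.0596). The elongase Elovl6 and the acetyl-CoA synthetase Acss2 had log2 fold changes below 0, of -0.48 (adjusted p = 0.109) and -0.57 (adjusted p = 0.270), that did not pass. Elovl6 was at 233 and 314 CPM in the mesoderm progenitors and between 351.5 and 692 CPM in the stem cells. Of 6 genes that take isoprenoids from the pathway into other products, none rose and 1 fell, near the 15.5% of all genes called lower. This was Fntb (a subunit of farnesyltransferase, -0.90, adjusted p = 0.0420), and that call was lost without either mesoderm library (adjusted p = 0.131 and 0.0778), without day 5 (0.140) or without day 11 of 2iJ+B-A (0.125).

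**Figure D3:**
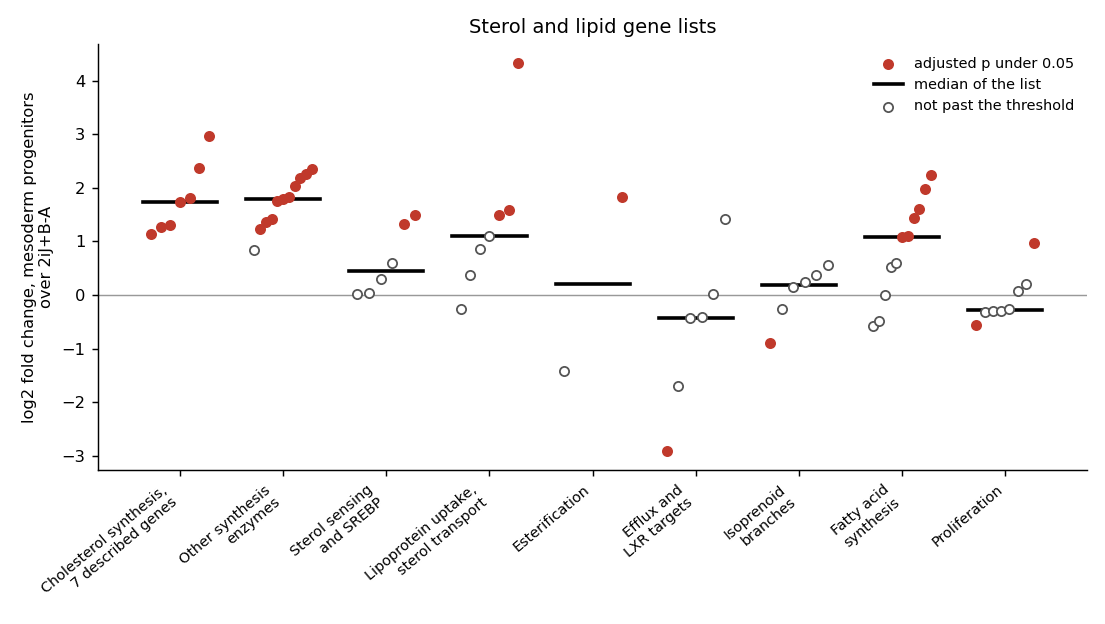
Log2 fold change of each gene of 9 lists for the mesoderm progenitors (n = 2) over 2iJ+B-A (n = 3), with filled points for an adjusted p under 0.05 and a bar at the median of each list. The cholesterol synthesis lists lie above 1 for all genes but Ebp, while the export, isoprenoid and proliferation lists centre near 0 or below, with medians of -0.43, 0.20 and -0.27.

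Other things differed with the groups. Serum in the medium, growth as embryoid bodies, the factors added and the identity of the cells all changed between the mesoderm progenitors and the mESCs, and their parts cannot be told apart. The letters of the sample codes also follow the groups, so a batch that followed them cannot be told apart either. A list of 8 proliferation genes summed to 3405 and 3294 CPM in the mesoderm progenitors. The sums were 1898 CPM in the sorted library and between 3527 and 4217 CPM in the 5 unsorted stem cell libraries, above both mesoderm sums. Against 2iJ+B-A, 1 of the 8 (Mki67, log2 fold change 0.97) rose and 1 (Mcm3, -0.55) fell. These counts are near the shares of all genes called higher (11.5%) and lower (15.5%). Markers of yolk sac endoderm, a tissue that secretes lipoproteins, summed over 6 genes to 14.3 and 9.34 CPM in the mesoderm progenitors on days 3 and 4 and to between 4.44 and 6.51 CPM in the stem cells. Most of that was Mttp, at 8.30 and 8.27 CPM, while Apob, Apoa1, Apoa4, Ttr and Afp were each under 3 CPM in every library. None of the 3 endoderm markers that passed the filter was called, and their part in the result was not tested. Primitive endoderm markers summed over 4 genes to 119 and 336 CPM in the mesoderm progenitors and to between 3.77 and 127 CPM in the stem cells. Most of the mesoderm sum was Gata4 and Gata6, with means of 161 and 59.3 CPM against 31.2 and 9.34 CPM in 2iJ+B-A. Sox17 and Sox7 lay the other way, with means of 2.08 and 4.955 CPM against 10.1 and 5.73 CPM. None of the 4 was called against 2iJ+B-A, and 2 were called higher against the 3 unsorted stem cell groups (15.7% of all genes). The part of these markers in the result was not tested.

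Within the mesoderm progenitors the 7 genes were all higher on day 4 than on day 3, a direction shown by 48.6% of all genes. There was 1 library a day, so no test was made, and the intervals given here are 95% counting intervals. The median log2 ratio was 0.35 over the 7 genes and 0.0 over all genes. Dhcr7 had the largest ratio, 0.71 (0.64 to 0.79), and Idi1 the smallest, 0.23 (0.16 to 0.30). Insig1 was at 0.42, Cyp51 at 0.39, Sqle at 0.35, Fdft1 at 0.31 and Lss at 0.26. Time, IWP-2 and the change in marker genes go together in this pair and cannot be told apart.

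Among the mESCs, addition of the JAK inhibitor to 2i was compared in 1 library each. Of the 7 genes 1 (Sqle) was higher in 2iJ than in 2i, where 53.9% of all genes were higher, and the median log2 ratio was -0.16. Idi1 had the largest difference, with a log2 ratio of -0.57 (95% counting interval -0.69 to -0.45), followed by Cyp51 at -0.31. The intervals for Sqle, Lss and Dhcr7 included 0, and they cover counting error only, so none of these differences has a replicate check.

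Addition of BMP4 and ALK5 inhibitor II to 2iJ gave no call among the 7 genes (0.0% of all genes were called by edgeR, with 1290 of 16961 at an unadjusted p under 0.05). No member reached an unadjusted p under 0.05, and DESeq2, which called 305 genes, called none of the 7. The log2 fold changes of 2iJ+B-A over 2iJ lay between -0.44 (Fdft1, SE 0.25) and 0.09 (Insig1, SE 0.31). With 1 library of 2iJ, differences of this size could not be separated from the spread between libraries.

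No change with time within 2iJ+B-A passed for the 7 genes (0.0% of all genes called by edgeR, 1004 of them at an unadjusted p under 0.05, and 115 called by DESeq2, none of them among the 7). Of the 7 genes 6 were lower on day 11 than on day 2, where 48.2% of all genes were, and Fdft1, Lss, Cyp51 and Dhcr7 were lower at each later day, where 21.4% of all genes were. Fdft1 was at 93.1, 75.2 and 67.9 CPM on days 2, 5 and 11, a slope of -0.20 (SE 0.10) per doubling of the day on the log2 scale. Dhcr7 had the steepest slope, -0.32 (SE 0.18, edgeR adjusted p = 0.858), and Sqle the only positive one, 0.09 (SE 0.10).

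The sorted Cdx2-GFP-positive cells differed from the unsorted 2iJ+B-A cells in no member by edgeR (2.08% of all genes were called lower and 3.34% higher), with Sqle and Fdft1 at an unadjusted p under 0.05. Sqle was closest, with a log2 fold change of -0.83 (SE 0.23, adjusted p = 0.0812). It passed with DESeq2 (adjusted p = 0.0213) and without either mesoderm library (0.0464 and 0.0455). Sqle, Idi1 and Cyp51 were lower in the sorted library than in the other 7, as were 25.8% of all genes. Against the unsorted library of the same day the log2 ratios were -0.74 for Sqle, -0.73 for Idi1 and -0.59 for Cyp51, but 0.32 for Fdft1 and 0.17 for Dhcr7, so 2 of the 7 were higher, where 47.1% of all genes were. The cell line, the sort and the larger shares of read pairs unmapped or assigned to no gene go together in this library. Their parts cannot be told apart.

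**Figure D4:**
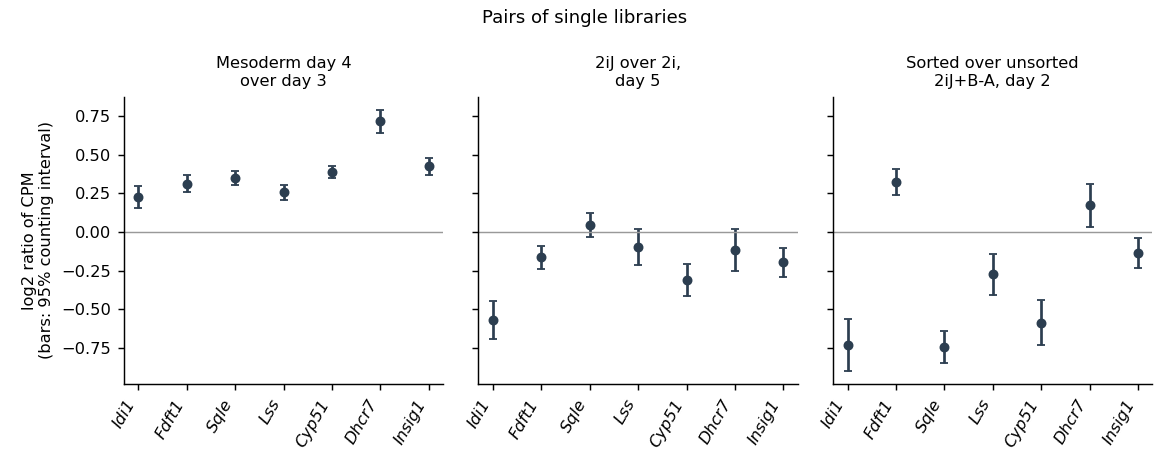
Log2 ratio of CPM for the 7 genes in 3 pairs of single libraries, with 95% counting intervals and no replicates. All 7 ratios are above 0 for mesoderm day 4 over day 3, 6 of 7 are below 0 for 2iJ over 2i, and 5 of 7 are below 0 for sorted over unsorted cells of day 2.

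The 7 genes varied together mainly through the mesoderm libraries. Over the 8 libraries, Pearson's r between pairs of the 7 had a median of 0.907 (0.617 to 0.987 over 21 pairs), and over the 6 stem cell libraries alone it had a median of 0.361 (-0.592 to 0.952). These are descriptions over few libraries that share groups and depth, with no test. Among 9449 genes with a mean of at least 10 CPM, the 5 with the pattern most like the mean of the 7 over the 8 libraries were Fam53a (r = 0.993), Sc4mol (0.993), Acat2 (0.991), Csnk1g3 (0.987) and Gatad1 (0.986), of which Sc4mol and Acat2 are enzymes of the pathway. Srebf2 stood at rank 20 (r = 0.979). Fam53a was at 31.4 and 33.3 CPM in the mesoderm progenitors and between 17.6 and 20.4 CPM in the stem cells, and Gatad1 at 133 and 128 CPM against 57.3 to 70.3 CPM. The remaining enzymes of the pathway ranked between 12 (Mvd) and 3567 (Ebp), and 117 genes had an r over 0.95, of which 5 were among the 11 further enzymes.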

How the data were processed

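Strand-specific poly-A libraries were sequenced as read pairs of 126 bases, trimmed below quality 20 and aligned by the authors to the NCBIM37 mouse genome with STAR 2.4.2a, per the labels and the study's methods. The authors deposited unnormalized counts, made by STAR, of the read pairs assigned to each gene, both unstranded and by strand. The release of the annotation behind them is not given in the sources used here. The study adjusted its own values between experiment days with ComBat, and no such adjustment is in these counts. Read pairs outside genes were left out of library totals.

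Counts on the reverse strand were used, with CPM as the share of the gene counts of a library. A single edgeR 4.0.16 fit (R 4.3.3) covered all 8 libraries, with 5 group coefficients and 3 residual degrees of freedom, TMM scaling, a minimum of 10 counts in 2 or more libraries (16961 genes), the quasi-likelihood test, and Benjamini-Hochberg adjustment over all genes with a threshold of 0.05. Days of a group served as its samples, so the spread includes change over time. Standard errors were obtained by dividing the log2 fold change by the root of F. The slope on log2(day) within 2iJ+B-A left 2 residual degrees of freedom. Pairs of single libraries (2iJ and 2i, the mesoderm days, and the sorted and unsorted cells of day 2) were compared with no test. Their log2 ratios carry 95% counting intervals, from a normal approximation on the log scale, that cover counting error only. The 2iJ and sorted groups, of 1 library each, were also tested against 2iJ+B-A in the fit. The floor of 3 counts is between 0.095 and 0.151 CPM.

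The genes and lists were chosen with earlier results of these data known. The 11 further enzymes analysed are named, as are the main sterol and fatty acid genes and other listed genes whose adjusted p passed, plus the 5 genes with the most similar pattern. DESeq2 1.42.0, other scaling, no filter, unstranded counts, other references and left-out libraries were tried as alternatives. Promoter windows and their coordinates are on GRCm38.p6, another build than that of the counts. Sox1 and Dab2 were not analysed here, and some genes of the pathway are not reported here.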

Additional observations from a re-analysis of the deposited data

How the results depend on the processing

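Against 2iJ+B-A, all 7 cholesterol synthesis genes passed under each of the 11 alternatives, while the number of genes called over the whole table was 4584 and went to between 2019 (without day 5 of 2iJ+B-A) and 4597 when 1 library was left out (2666 without day 11). Without day 5, 773 of 16732 genes were called higher. Against the 3 unsorted stem cell groups, leaving out 1 library gave 6 to 7 of the 7 (Fdft1 was lost) and 3584 to 5440 genes, against 5437. For 2iJ+B-A over 2iJ the 0 genes called by edgeR became 305 with DESeq2 (182 higher and 123 lower) and 150 with 2i and 2iJ pooled as the reference. For the sorted cells the 919 genes became 1390 with no filter on low counts, 2697 with DESeq2 and 27 when compared at day 2, and between 37 and 2052 when 1 library was left out. The 0 of 7 called there became 1 (Sqle) with DESeq2 and ranged from 0 to 1 when 1 library was left out. For the slope over days, the 0 genes became 2 with no filter and 115 with DESeq2, and ranged from 0 to 469 when 1 library was left out (379 without day 3 of the mesoderm progenitors). The cause of these changes was not tested.

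Signs turned only for differences near 0 that did not pass. Against 2iJ+B-A, Insig2 ranged from -0.043 (without day 4 of the mesoderm progenitors) to 0.16 when 1 library was left out, and was also below 0 without day 2 of 2iJ+B-A (-0.017). Scap ranged from -0.057 (without day 2 of 2iJ+B-A) to 0.19, and was also below 0 without day 3 of the mesoderm progenitors (-0.0055). Against the 3 unsorted stem cell groups, Insig2 was at 0.018 with the sorted group included and ranged from -0.15 to 0.056 (without day 3 of the mesoderm progenitors), and Ebp ranged from -0.093 (without day 3) to 0.58. For 2iJ+B-A over 2iJ, Insig1 was at -0.015 with the pooled reference and ranged from -0.098 (without day 2) to 0.25, and Dhcr7 from -0.33 to 0.031 (without day 11). Leaving out the sorted library was an alternative chosen after seeing the data. It changed no call of the 7, but that library enters none of the comparisons where it was left out. Little change could arise there, so this is no check on the calls. Groups of 1 library (2i, 2iJ and the sorted cells, and the mesoderm progenitors when a day was left out) were assumed to vary like the others. No paired analysis was possible because the labels give the libraries no shared replicate numbers. Depth limits the genes under about 3 CPM, such as Soat2 and Abcg1, and not the 7.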

Other observations

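Of 11 fatty acid genes, 3 were called lower and none higher in the sorted Cdx2-GFP-positive cells than in the unsorted 2iJ+B-A cells by edgeR (2.08% of all genes were called lower and 3.34% higher), with a median log2 fold change of -0.77 against -0.08 over all genes. Fads2, a desaturase, was at 8.93 CPM in the sorted library and at 46.3, 45.1 and 34.4 CPM in 2iJ+B-A on days 2, 5 and 11. Fads1, its partner enzyme, was at 25.9 CPM against 83.0, 65.3 and 64.7 CPM, and Acaca at 28.4 CPM against 58.5, 74.4 and 81.5 CPM. Elovl6, an elongase of the same list, lay the other way, at 692 CPM in the sorted library against 360, 363 and 436 CPM, with a log2 fold change of 0.89 that did not pass (edgeR adjusted p = 0.0717). Mbtps1, the protease that makes the first cut of SREBPs and no member of that list, was at 107 CPM in the sorted library and between 239 and 246 CPM in 2iJ+B-A. Of 10 alternatives, the lower value passed in 7 for Fads2 and in 6 each for Fads1, Acaca and Mbtps1, and Elovl6 passed in 3. These 5 genes were singled out after their values were seen. The sorted group was 1 library of another line, so its spread was taken from the other groups. It had 29.7% of read pairs unmapped and 27.84% of uniquely aligned pairs assigned to no gene. The part of the line and of these read pairs in the differences was not tested.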
